A study of Sus scrofa with 12 samples.

Results

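Lymphatic vessels of the heart carry fluid, lipid and leukocytes from the tissue spaces back to the blood. Their endothelial cells are set apart from those of blood vessels by the transcription factor PROX1, and they grow mainly in answer to the growth factors VEGFC and VEGFD through the receptor FLT4. Capillaries at the blind ends of the network take up fluid and cells, and the collecting vessels that they feed have valves and a muscle coat.

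A set of 8 genes known for their use in lymphatic endothelium was examined: PROX1, FOXC2, LYVE1, PDPN, CCL21, RELN, MMRN1 and TFF3. They were taken by name, and no threshold on measured values entered the rule. An identifier was found for all 8 among the 35682 genes of the count files, of which 15623 had a symbol. Reads were counted for 7 of the 8, and these 7 were also the ones kept by the filter on low counts and tested, among 13844 genes in all. TFF3 had 0 counts in every library.

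The samples were 12 RNA libraries from the left ventricle of 6 Yorkshire pigs, named here by animal number. All were females aged 10 to 12 weeks at the start. Each had ischemia and reperfusion of the left anterior descending artery territory by 60 min of balloon occlusion, immunosuppression from day 9 (tacrolimus at 0.75 mg/kg/day, mycophenolate mofetil at 500 mg/day and prednisolone at 20 mg/day), a thoracotomy on day 14, and harvest of the heart 28 days after that. At thoracotomy the animals received either vascular organoids made of human endothelial progenitor cells and smooth muscle cells, with fibrin sealant, or the sealant alone. Which animal received which was not used here. Each animal gave a library of each region, so both regions hold animals of both kinds. Values are given per library or as lowest, median and highest. The border zone was the myocardium beside the infarct and the remote zone was the posterior wall, each sampled once per animal. Reads were counted on pig genes only, and whether RNA of human cells added to a count was not tested. In bulk tissue, fewer cells of a type and less RNA per cell cannot be told apart.

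Counts on genes summed to 15130210 to 30526110 per border zone library and 20091415 to 31618680 per remote zone library. Levels are given as CPM, counts brought to a common library size after TMM scaling, which aligns the libraries through the bulk of their genes. Heart muscle markers were abundant in all libraries: a list of 12 cardiomyocyte genes, of which 10 were tested, summed to 57856 to 97321 CPM in the remote zone and 12013 to 71630 CPM in the border zone. The lowest of these sums belonged to the border zone of animal 1022, which also had the highest sums of the matrix list (68966 CPM) and the macrophage list (1340 CPM). In the border zone of animal 3622, 28024 genes had counts, against 20148 in the next library of that zone. Because these libraries stand apart, values without that of animal 1022 are given beside many results, and values without that of animal 3622 in fewer places. Without the border zone library of animal 1022, the highest border zone sums were 11691 CPM for the matrix list and 328 CPM for the macrophage list.

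No gene of the set differed between the regions by edgeR at the threshold used, an adjusted p under 0.05. RELN and FOXC2 came nearest, with higher levels in the border zone of 6 and of 5 of 6 animals, respectively. CCL21 and MMRN1 were higher there in 4 of 6 animals each, while LYVE1, PDPN and PROX1 had log2 differences between -0.14 and 0.12. By the quasi-likelihood test of edgeR, adjusted by Benjamini and Hochberg's method, 0 of the 7 genes tested were called in either direction, where 2.07% of all genes tested were called and 2.06% were called higher in the border zone. An unadjusted p under 0.05 was found for 2 of the 7, RELN and FOXC2, and for 24.7% of all genes. The log2 fold change was positive for 6 of the 7, with a median of 0.62, against 53.3% of all genes and a median of 0.04. The median of the 7 was 0.27 without the border zone library of animal 1022.

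**Figure D1:**
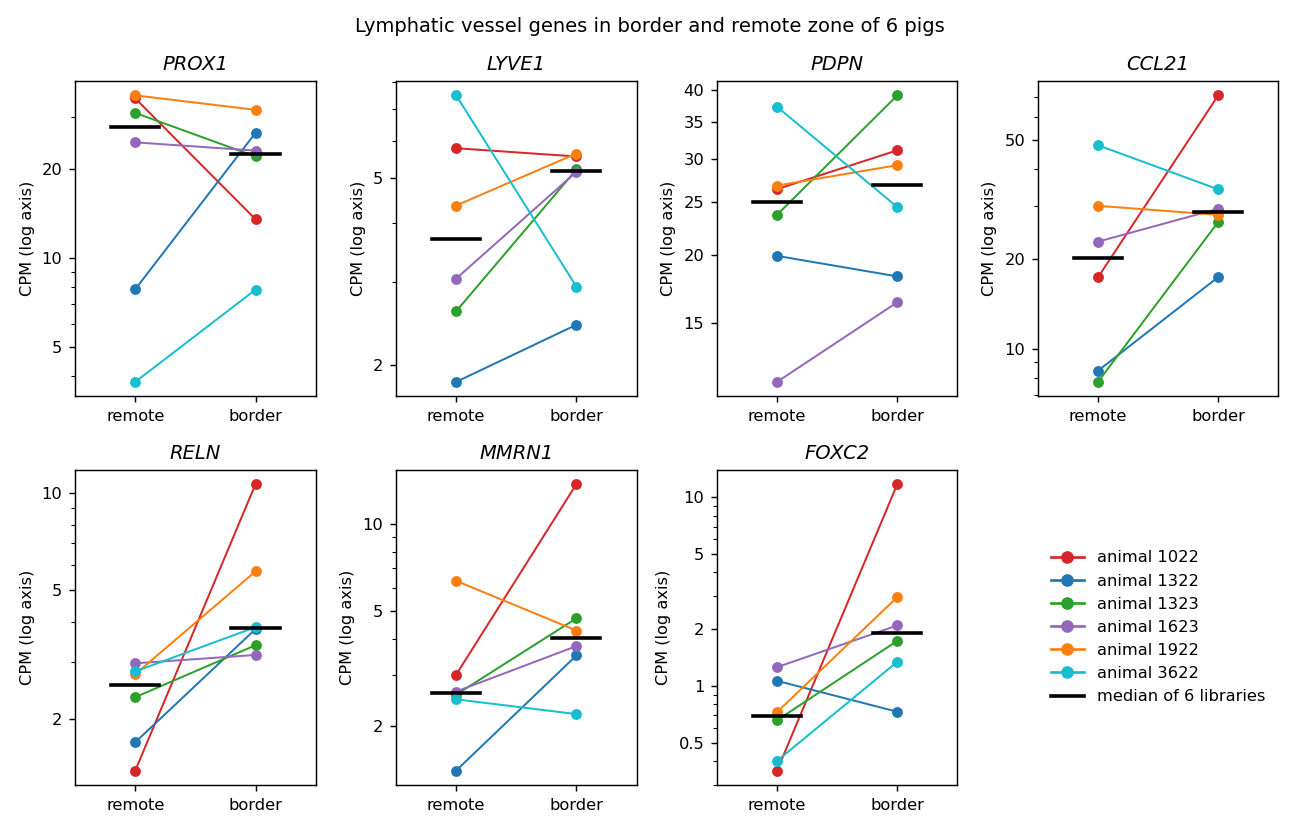
CPM on a log axis for the 7 genes with counts, in the remote zone and the border zone; each line joins both libraries of 1 animal, colours mark animals and black bars mark the median of 6 libraries. RELN lines go up in all 6 animals, and animal 1022 has the highest border zone point for CCL21, RELN, MMRN1 and FOXC2.

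RELN encodes reelin, a large secreted glycoprotein that lymphatic endothelial cells release and that acts in the contact between collecting vessels and their muscle cells. The gene lies on the minus strand of chromosome 9 (Sscrofa11.1, chr9:103460855-103963728). Its level was 1.39 to 2.98 CPM in the remote zone, with a median of 2.55, and 3.16 to 10.7 CPM in the border zone, with a median of 3.82. No remote zone library reached the lowest border zone library, and the highest value, 10.7 CPM, was in animal 1022. Such a lack of overlap, with every border zone library above every remote zone library, was found for 1.99% of all genes tested. The counts behind these levels were 35 to 78 in the remote zone and 63 to 323 in the border zone.

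Within animals, RELN was higher in the border zone by 7.25-fold in animal 1022, 2.17-fold in 1322, 2.04-fold in 1922, 1.43-fold in 1323, 1.36-fold in 3622 and 1.06-fold in 1623. All 6 animals had the same direction, which 11.7% of all genes tested also showed toward the border zone. The mean within-animal difference was 1.01 ± 0.40 (SE, n = 6) on the log2(CPM + 0.1) scale, with p = 0.03125 by a two-sided exact permutation test over sign changes, the smallest value that 6 animals allow. Without animal 1022 the mean was 0.64. This test was run on 7 genes and was not adjusted. In the fit across all genes, RELN had a log2 fold change of 1.13 ± 0.34 (SE) and an adjusted p of 0.0811 by edgeR.

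FOXC2, a forkhead transcription factor needed for lymphatic valves and also used in mesenchyme, had the largest fold change of the set and low counts. It is a gene of 1 exon on chromosome 6 (chr6:2552141-2555041, minus strand), inside the span of MTHFSD on the opposite strand, with 0 exon bases shared. In the remote zone it had 6 to 33 counts per library, at 0.356 to 1.26 CPM with a median of 0.693. The lowest of these counts were under the limit of the filter. When at least 10 counts were required in every library, FOXC2 was not tested. In the border zone the counts were 15 to 356, at 0.730 to 11.8 CPM with a median of 1.92. The groups overlapped, since the border zone of animal 1322 was below its remote zone. The libraries did not record strand, and the levels of FOXC2 and MTHFSD across the 12 libraries had a Pearson r of 0.22.

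The border zone of animal 1022 held 57.0% of the FOXC2 level summed over the 6 border zone libraries and was 26.0-fold above the remote zone of that animal. In the other animals the ratio was 3.70 in 1922, 2.88 in 3622, 2.42 in 1323, 1.61 in 1623 and 0.712 in 1322. The within-animal mean was 1.60 ± 0.71 (SE, n = 6), with p = 0.0625 by the exact permutation test, and 0.98 without animal 1022. The fit gave a log2 fold change of 2.20 ± 0.63 (SE) with an adjusted p of 0.0734 by edgeR. Without the border zone library of animal 1022 the fold changes were 1.24 for FOXC2 and 0.77 for RELN on the log2 scale, with adjusted p of 0.149 and 0.145 by edgeR.

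Both genes were called in other settings. The Wald test of DESeq2 called 2 of the 7, RELN with an adjusted p of 0.0306 and FOXC2 with 0.0122, where it called 8.48% of all genes higher in the border zone. Scaling by library totals also called both, where 11.2% of all genes were called higher, and under that scaling the all-gene median, 0.04 with TMM, was 0.32 on the log2 scale. In the fit with a replicate block for the animal, the adjusted p was 0.121 for RELN and 0.139 for FOXC2 by edgeR, and 0 of the 7 were called, where 0.296% of all genes were called.

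RELN and FOXC2 varied together, with a Pearson r of 0.85 over 12 libraries of 6 animals, the highest of any pair of the set. Without the border zone of animal 1022 it was 0.67, below that of LYVE1 with CCL21 (0.71). Both also varied with COL1A1, the main collagen gene of scar, with r of 0.91 for RELN and 0.92 for FOXC2, or 0.81 and 0.83 without that library. The points share animals, and the low counts of FOXC2 add error to them. COL1A1 was at 235 to 681 CPM in the remote zone and 878 to 30498 CPM in the border zone. Of the 12 fibroblast and matrix genes listed, 12 were tested and edgeR called 10 higher on the border side, where 2.06% of all genes were. With the animal as a block it called 1, where 0.296% of all genes were called. The median log2 fold change of these matrix genes was 2.58, or 1.61 without the border zone library of animal 1022. Their summed level was 1168 to 2781 CPM in the remote zone and 3255 to 68966 CPM in the border zone, and none was at 0 throughout. The part of matrix-producing cells in the RELN and FOXC2 values was not tested.

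A score for transcript length, the median log2 level of genes with at least 6000 exon bases minus that of genes with at most 2000, after each gene was centred on its mean over the libraries, was computed after the data were seen. It was -0.83 in the remote zone of animal 3622 and -0.64 in that of animal 1322, and -0.07 to 0.66 in the other libraries. In 6 of 6 animals the border zone had the higher score. RELN, with 11451 exon bases, had an r of 0.56 with it, or 0.33 without the border zone of animal 1022, and FOXC2, with 2901, had an r of 0.64, or 0.46. The part of transcript length or RNA quality in the RELN and FOXC2 values was not tested.

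**Figure D2:**
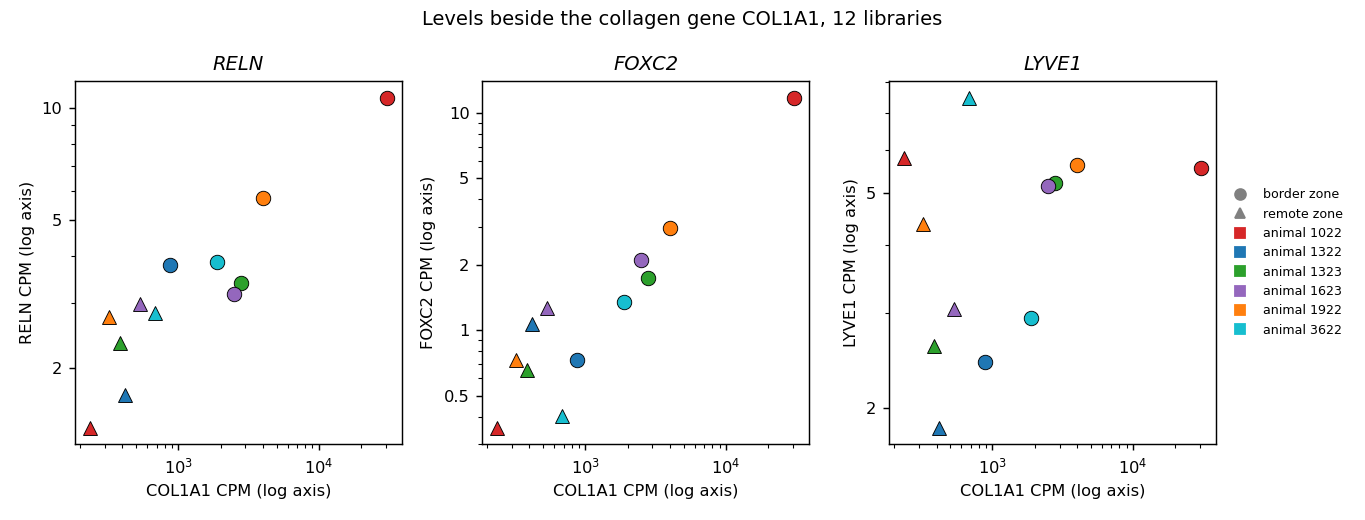
RELN, FOXC2 and LYVE1 in CPM against COL1A1 in CPM, all on log axes, for the 12 libraries; circles are border zone, triangles are remote zone and colours mark animals. RELN and FOXC2 go up with COL1A1 (r of 0.91 and 0.92), and LYVE1 has an r of 0.35.

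The genes most like RELN across the 12 libraries, by Pearson r of log2 CPM, were CPQ (0.942), FRMD6 (0.925) and ELN (0.924). Those most like FOXC2 were ADGRA2 (0.967), ELN (0.966) and ACTN4 (0.965). ELN, which encodes the elastin of elastic fibres, was thus among the leading genes for both.

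The sequences just upstream of their annotated starts are shown for this pair because the genes varied together. Each is the 250 bases before the RefSeq gene start on Sscrofa11.1, written 5′ to 3′ on the strand of the gene. Motifs were searched on both strands, and matches are in capitals. The letters searched for a GC box, bound by SP1 and its relatives, were GGGCGG. For a TATA box, which helps to place the start of transcription, they were TATAAA. The motif for factors of the family of GATA2 was read as AGATAA. That for forkhead proteins, the family of FOXC2 itself, was read as GTAAACA. For SOX proteins, the family of SOX18, the search was for AACAAT. The RELN window is at chr9:103963729-103963978 and the FOXC2 window at chr6:2555042-2555291, both on the minus strand.
RELN: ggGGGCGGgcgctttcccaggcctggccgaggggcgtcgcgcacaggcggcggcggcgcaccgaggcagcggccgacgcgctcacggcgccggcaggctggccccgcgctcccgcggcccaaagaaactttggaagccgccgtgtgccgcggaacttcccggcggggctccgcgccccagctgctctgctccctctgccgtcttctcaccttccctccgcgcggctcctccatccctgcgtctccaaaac
FOXC2: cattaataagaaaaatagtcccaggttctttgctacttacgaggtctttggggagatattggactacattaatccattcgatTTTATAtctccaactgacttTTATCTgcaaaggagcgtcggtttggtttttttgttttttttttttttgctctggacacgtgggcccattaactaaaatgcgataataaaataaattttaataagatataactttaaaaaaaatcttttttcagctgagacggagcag

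The windows were unlike in composition. The RELN window had 75.2% G and C and 1 GC box match, which 45.91% of 19545 such windows of pig genes held. The FOXC2 window had 32.8% G and C, with 1 TATA box match (9.77% of windows) and 1 GATA match (8.08% of windows), both read on its reverse strand. The median of all windows was 57.6% G and C. Neither window held the forkhead letters, found in 2.28% of windows, or the SOX letters, found in 7.07%, which says only that these letters were absent from these windows.

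CCL21, the chemokine by which lymphatic vessels draw in dendritic cells and lymphocytes that carry the receptor CCR7, was the most abundant transcript of the set when levels were set per length. The gene is short (439 exon bases) and lies on chromosome 10 (chr10:32093783-32094482, plus strand). Its level was 7.74 to 48.1 CPM in the remote zone, with a median of 20.1, and 17.4 to 70.7 CPM in the border zone, with a median of 28.8. The ranges overlapped: the remote zone of animal 3622, at 48.1 CPM, was above 5 of the 6 border zone libraries.

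Animals differed in direction for CCL21. The border zone was higher by 4.06-fold in animal 1022, 3.41-fold in 1323, 2.05-fold in 1322 and 1.29-fold in 1623, while the ratio was 0.933 in 1922 and 0.712 in 3622. The within-animal mean was 0.77 ± 0.41 (SE, n = 6), with p = 0.1875 by the exact permutation test. In the fit the log2 fold change was 0.62 ± 0.44 (SE), with an adjusted p of 0.396 by edgeR, and without the border zone library of animal 1022 it was 0.27. CCR7 itself had 4 to 66 counts per border zone library and 0 to 11 per remote zone library and was not kept by the filter.

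MMRN1 encodes multimerin 1, a large soluble protein stored in platelets and endothelium and a common marker of lymphatic endothelium. The gene is on the minus strand of chromosome 8 (chr8:129113951-129173413). Its level was 1.40 to 6.34 CPM in the remote zone (median 2.60) and 2.20 to 13.7 CPM in the border zone (median 4.02). The groups overlapped, with the border zone of animal 1022 highest and holding 42.6% of the summed border zone level. The ratio of border to remote zone was 4.43 in animal 1022, 2.40 in 1322, 1.80 in 1323 and 1.42 in 1623, but 0.894 in 3622 and 0.679 in 1922.

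For MMRN1 the within-animal mean was 0.67 ± 0.40 (SE, n = 6), with p = 0.1875 by the exact permutation test, and 0.38 without animal 1022. The fit gave 0.81 ± 0.44 (SE) on the log2 scale and an adjusted p of 0.270 by edgeR, and 0.27 without the border zone library of animal 1022. Platelet genes were sparse: of 7 listed, 4 were tested and 0 were called by edgeR or DESeq2, and their summed level was 5.30 to 9.98 CPM in the remote zone and 3.94 to 11.1 CPM in the border zone. PPBP, a defining platelet gene, was at most 0.132 CPM in any library.

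LYVE1, a hyaluronan receptor of lymphatic capillaries that resident macrophages of the heart also carry, overlapped between the regions. The gene is on chromosome 2 (chr2:48937357-48954206, plus strand). It was at 1.84 to 7.49 CPM in the remote zone (median 3.71) and at 2.43 to 5.63 CPM in the border zone (median 5.18). Both the lowest and the highest value were remote zone libraries, of animals 1322 and 3622. The border to remote ratio was 1.97 in animal 1323, 1.67 in 1623, 1.31 in 1322 and 1.28 in 1922, but 0.961 in 1022 and 0.400 in 3622. The within-animal mean was 0.18 ± 0.33 (SE, n = 6), with p = 0.625 by the exact permutation test, and the fit gave 0.11 ± 0.35 (SE) with an adjusted p of 0.877 by edgeR.

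Because macrophages can carry LYVE1, their genes are given beside it. Of 12 listed, 11 were tested and edgeR called 0, where it called 2.06% of all genes higher in the border zone. The Wald test of DESeq2 called 5 of the 10 that it gave an adjusted p, where it called 8.48% of all genes higher. The median log2 fold change of the macrophage genes was 1.46, or 0.61 without the border zone of animal 1022. They had a summed level of 122 to 224 CPM in the remote zone and 122 to 1340 CPM in the border zone. None of them was at 0 throughout, and the r of LYVE1 with CD163, a receptor of resident and repair macrophages, was 0.42 over 12 libraries. Their part in the LYVE1 level was not tested.

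PDPN encodes podoplanin, a mucin-type surface protein of lymphatic endothelium that fibroblasts and mesothelium can also carry. The gene is on chromosome 6 (chr6:73019063-73050000, plus strand). It was at 11.7 to 37.3 CPM in the remote zone (median 25.0) and 16.4 to 39.1 CPM in the border zone (median 26.8). The ranges overlapped almost wholly, and animal 1623 had the lowest value in each region. The within-animal mean was 0.14 ± 0.19 (SE, n = 6), the smallest error of the set, with p = 0.53125 by the exact permutation test and 4 of 6 animals higher in the border zone. The fit gave a log2 fold change of 0.12 ± 0.27 (SE) and an adjusted p of 0.814 by edgeR. Mesothelial genes, of which 3 of 10 listed were tested and 0 were called by edgeR or DESeq2, summed to 25.1 to 95.9 CPM in the remote zone and 23.4 to 136 CPM in the border zone, where the highest sum and the highest PDPN were both in animal 1323.

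LYVE1 and CCL21 had an r of 0.71 over the 12 libraries, with and without the border zone of animal 1022. Across all 21 pairs of the 7 genes, r ran from -0.29 to 0.85 with a median of 0.35. It was over 0.6 for 6 pairs, and for 3 pairs without that library. The r of RELN with MMRN1 went from 0.73 to 0.43 when it was left out, and that of CCL21 with RELN from 0.69 to 0.52. FLT4, the receptor for VEGFC and VEGFD, had an r of 0.78 with CCL21 and 0.79 with MMRN1, or 0.70 and 0.48 without the same library.

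**Figure D3:**
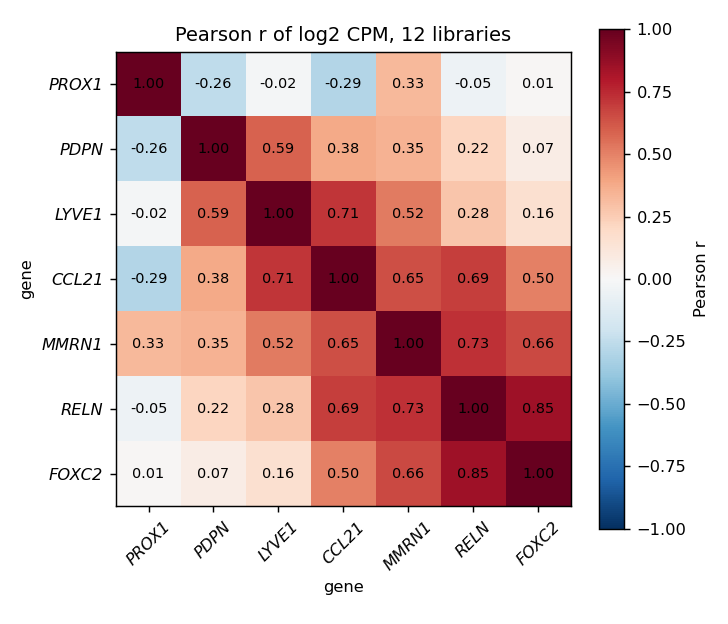
Pearson r of log2 CPM between the 7 genes with counts, over 12 libraries from 6 animals, as a colour and a printed value per pair. The highest value is that of RELN with FOXC2 (0.85), and PROX1 with CCL21 is the lowest (-0.29).

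PROX1, the homeobox transcription factor that sets and keeps lymphatic identity, varied widely between animals. It is also expressed by cardiomyocytes. The gene is on the minus strand of chromosome 9 (chr9:129527704-129583693), with 11051 exon bases, of which 914 (8.27%) are shared with a gene on the plus strand, LOC106507881. In the remote zone PROX1 was at 3.81 to 35.6 CPM with a median of 27.9, and in the border zone at 7.82 to 31.8 CPM with a median of 22.6. The ranges overlapped, and both libraries of animal 3622 (7.82 CPM at the border and 3.81 CPM remote) and the remote zone of animal 1322 (7.85 CPM) were the lowest.

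Directions for PROX1 were mixed. The border to remote ratio was 3.36 in animal 1322 and 2.03 in 3622, and in the other animals it was 0.391 (1022), 0.713 (1323), 0.893 (1922) and 0.938 (1623). The within-animal mean was 0.11 ± 0.45 (SE, n = 6), with p = 0.875 by the exact permutation test. In the fit the log2 fold change was -0.14 ± 0.48 (SE), with an adjusted p of 0.882 by edgeR, and the sign differed between these estimates. When animal 3622 and the remote library of 1322 were left out, a setting chosen after the data were seen, PROX1 was at -0.43, with an adjusted p of 0.361 by edgeR. In the same setting RELN was at 1.17 and FOXC2 at 2.35, and 0 of the 7 genes were called.

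PROX1 had an r between -0.29 and 0.33 with each of the other 6 genes. The highest of these, with MMRN1, was 0.64 without the border zone library of animal 1022. Its r was 0.75 with RYR2, the calcium release channel of heart muscle, and -0.60 with PECAM1, an adhesion protein of all endothelium, and -0.26 with CDH5, the cadherin of endothelial junctions. The genes most like PROX1 were NFIA (r of 0.987), UBQLN2 (0.986) and LSM11 (0.984). NFIA, a transcription factor of the nuclear factor I family, was at 6.62 to 69.4 CPM in the remote zone and 11.0 to 56.7 CPM in the border zone. Its lowest libraries were those lowest for PROX1.

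RYR2 was at 303 CPM in the border zone of animal 1022, 387 in the remote zone of 1322, and 530 (remote) and 584 (border) in animal 3622, against 835 to 1183 CPM in the other libraries. TNNI3, the troponin I of heart muscle and the product of a short transcript, had an r of -0.14 with PROX1, or -0.45 without the border zone of animal 1022. The 2 libraries with the highest TNNI3, at 20455 CPM in the remote zone of 1322 and 19356 CPM in that of 3622, had low PROX1. The transcript length score was lowest in the same 2 libraries. PROX1 had an r of 0.66 with it over 12 libraries, and 0.84 without the border zone of animal 1022, where the score was highest. For MMRN1, with 4253 exon bases, the r with the score was 0.77, or 0.69 without that library. The part of transcript length or RNA quality in the PROX1 and MMRN1 values was not tested.

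**Figure D4:**
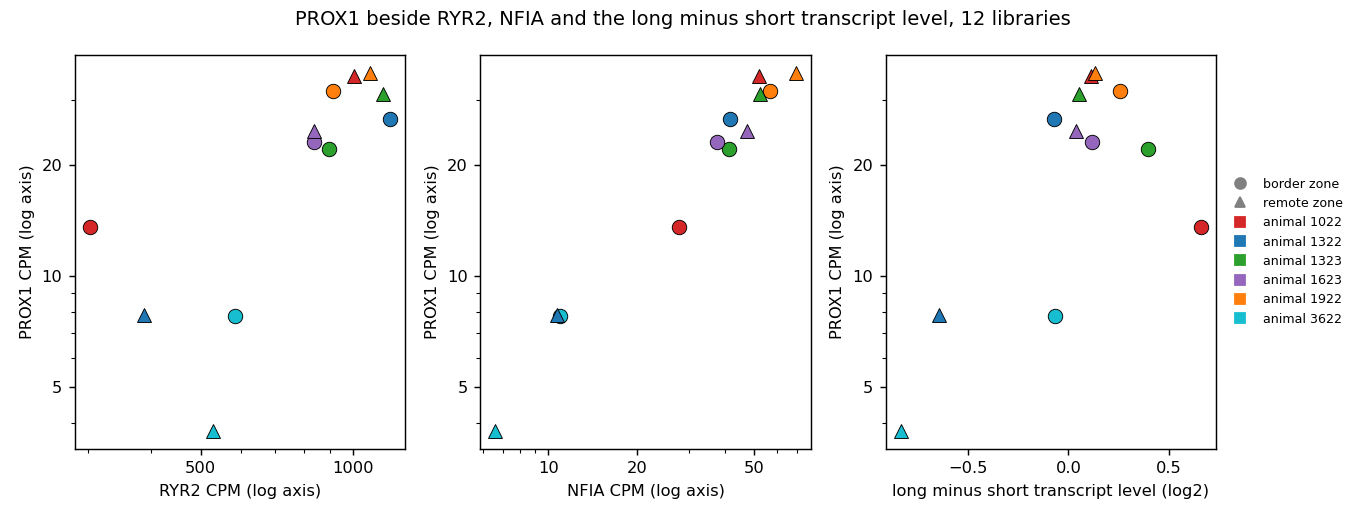
PROX1 in CPM (log axis) against RYR2 in CPM (log axis), NFIA in CPM (log axis) and the long minus short transcript level (log2), for the 12 libraries; circles are border zone, triangles are remote zone and colours mark animals. Both libraries of animal 3622 and the remote zone of animal 1322 lie lowest for PROX1 (3.81 to 7.85 CPM) and for NFIA.

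TFF3, a small trefoil peptide best known from mucus-secreting epithelium, is also listed as a lymphatic endothelial transcript. The gene, at chr13:205641038-205644333 on the minus strand, had 0 counts of 284302768 in the 12 libraries together. A count of 0 allows up to 3 counts at 95% confidence, which is between 0.0883 and 0.201 CPM per library at the TMM-scaled library sizes and 0.0104 CPM over all, for counting error only. TFF3 was thus not detectable at this depth with the annotation that was counted.

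Levels of different genes were compared per length, as CPM per kilobase of exon in the RefSeq annotation. In the border zone the medians were 65.6 for CCL21, 11.1 for PDPN, 2.05 for PROX1, 1.93 for LYVE1, 0.946 for MMRN1, 0.660 for FOXC2 and 0.334 for RELN. Those in the remote zone were 45.8, 10.4, 2.52, 1.38, 0.611, 0.239 and 0.222, in the same order of genes. In each region the lowest CCL21 library was above the highest PDPN library, and the lowest PDPN library above the highest PROX1 library. From PROX1 down to RELN, the ranges of neighbours overlapped in both regions. CCL21 made up 73.2% to 86.9% of the summed level per length of the 7 genes in the border zone (median 80.3%) and 54.6% to 84.9% in the remote zone (median 74.5%).

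Other genes of lymphatic growth and function were read from 5 lists with 52 genes, none of them in the set above. Of these, 49 had an identifier and 46 were tested. In the same edgeR test 3 were higher in the border zone, CALCRL, ACKR2 and ACKR4, and 0 were lower, where 2.06% of all genes were called higher. ACKR4, counted here and in its list below, was kept by the filter only through the border zone libraries, where it was high. The Wald test of DESeq2 called 13 of the 44 that it gave an adjusted p, all higher in the border zone, where it called 8.48% of all genes higher. The log2 fold change was positive for 41 of the 46, with a median of 0.49, against 53.3% of all genes and a median of 0.04. The part of other cell types in these values was not tested. By list, the calls were 0 of 10 growth factors and processing genes (median 0.35), 1 of 9 receptors (0.42), 0 of 9 transcription factors (0.40), 0 of 13 valve and junction genes (0.57) and 2 of 5 surface, scavenger and chemokine genes tested (1.74). With the border zone library of animal 1022 left out, these medians were 0.055, 0.20, 0.20, 0.37 and 1.19 in the same order.

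ACKR2 and ACKR4 encode atypical receptors that take up chemokines without signalling to move the cell, and CCL21 is among the ligands of ACKR4. ACKR2 was at 2.77 to 5.94 CPM in the remote zone and 6.04 to 19.0 CPM in the border zone, with no overlap. Its log2 fold change was 1.35 ± 0.30 (SE), with an adjusted p of 0.0350 by edgeR. ACKR4 had 1 to 9 counts per remote zone library and 7 to 63 per border zone library, which is 0.0329 to 0.343 CPM and 0.428 to 2.08 CPM. Its remote zone counts were under the limit of the filter, so ACKR4 was tested only because of the border zone libraries, where it was high. Neither its lack of overlap nor its call is therefore support. The log2 fold change was 2.37 ± 0.56 (SE), with an adjusted p of 0.0452 by edgeR.

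CALCRL, the receptor through which adrenomedullin acts on lymphatic endothelium, was at 16.1 to 24.5 CPM in the remote zone and 24.3 to 38.3 CPM in the border zone. The groups touched, since the remote zone of animal 1322 was above the lowest border zone library, and all 6 animals were higher in the border zone. The log2 fold change was 0.72 ± 0.16 (SE), with an adjusted p of 0.0338 by edgeR. In the fit with the replicate block, only ACKR2 of the 3 was called, with an adjusted p of 0.0430, against 0.0564 for ACKR4 and 0.0697 for CALCRL by edgeR. Without the border zone library of animal 1022, the adjusted p of ACKR4 was 0.0711 by edgeR. Without animal 1623 or animal 3622, 0 genes of the whole table were called.

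The genes of the main lymphatic growth factors had fold changes near 0. VEGFC, at 2.77 to 5.86 CPM in the remote zone and 3.54 to 5.95 CPM in the border zone, had a log2 fold change of 0.10 (adjusted p of 0.820 by edgeR), and VEGFD had -0.12 (0.876). CCBE1, which helps to release active VEGFC, was at 0.40 (0.526). Among receptors, FLT4 was at 0.67 (0.264) and NRP2, a co-receptor for VEGFC, at 1.33 (0.105). Both were highest in the border zone of animal 1022, and without that library they were at 0.20 (0.751) and 0.51 (0.121). The transcription factor genes SOX18 and NR2F2, which act upstream of PROX1 in development, were at 0.34 (0.500) and 0.96 (0.146). STAB1, a scavenger receptor of lymphatic endothelium and macrophages, was at 1.74 (0.0866), beside CD163 at 1.73 (0.108) and MRC1, the mannose receptor of both cell types, at 1.12 (0.120). None of these passed the threshold by edgeR, while the Wald test of DESeq2 called STAB1 (adjusted p of 0.0218) and CD163 (0.0347) and gave NRP2 no adjusted p. Without the border zone library of animal 1022 the log2 fold changes were 0.66 for CD163, 0.51 for MRC1, 0.42 for NR2F2, 0.078 for CCBE1 and 1.19 for STAB1. For SOX18, VEGFC and VEGFD they were 0.19, 0.020 and -0.18. STAB1 was at 125 CPM in that library and also high in the border zone of animal 3622, at 80.1 CPM. It was at 15.1 to 29.8 CPM in the other border zone libraries.

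**Figure D5:**
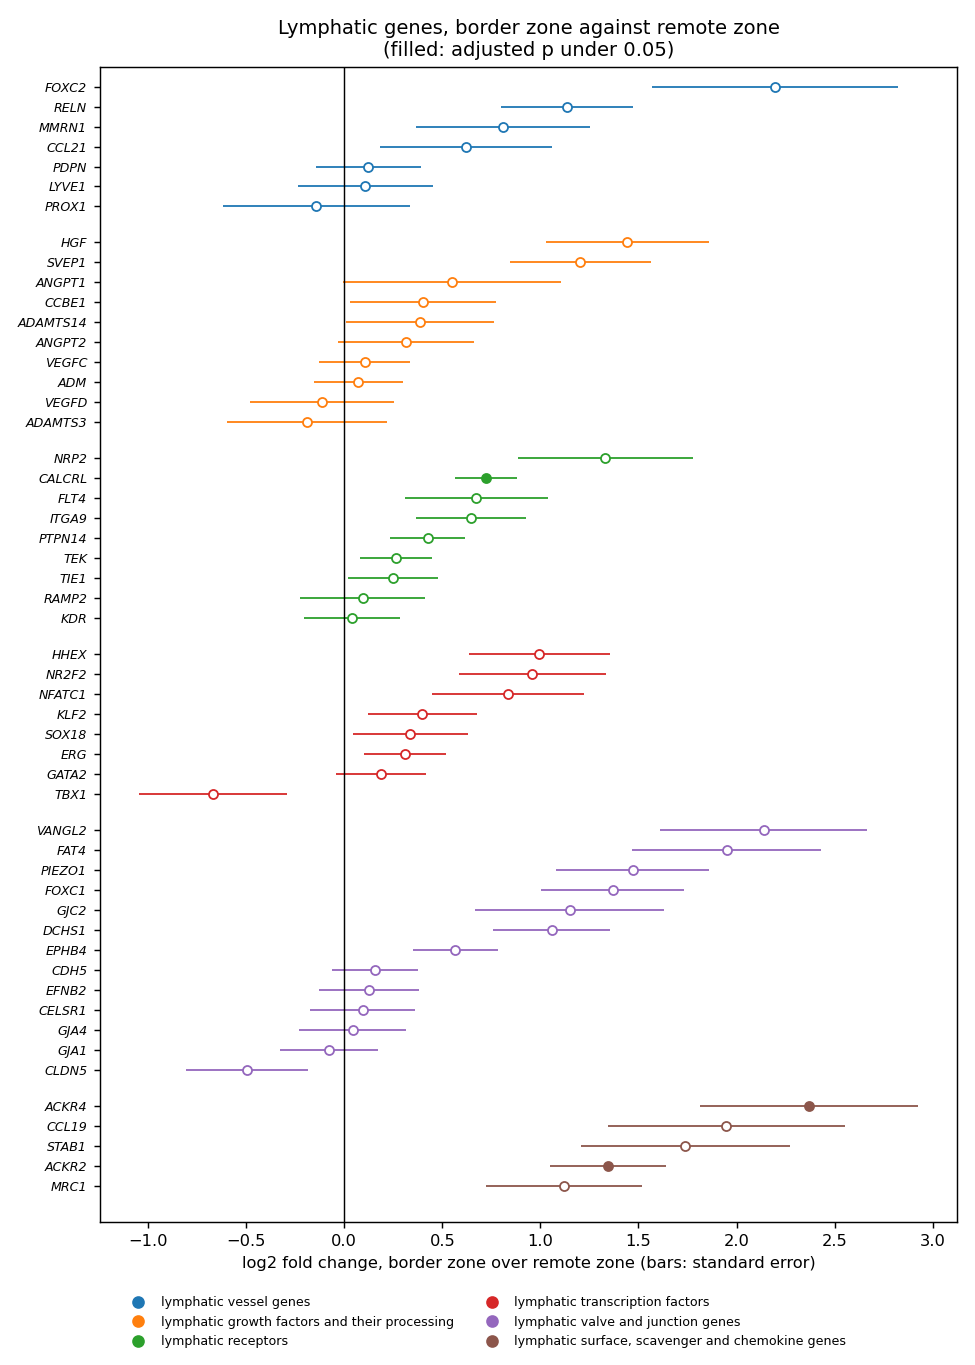
Log2 fold change of border zone over remote zone with its standard error, for the 7 genes of the set and genes tested of the 5 lymphatic lists, by list; filled points have an adjusted p under 0.05 by edgeR. The filled points are CALCRL, ACKR4 and ACKR2, and of the 7 genes FOXC2 (2.20) and RELN (1.13) lie farthest to the right.

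The blood endothelial list held genes on both sides of 0. Its genes KDR, CDH5, ERG, TIE1 and CLDN5 are also in the lymphatic lists, so these lists are not separate. Of 12 genes listed, 11 were tested and 0 were called by edgeR or DESeq2, and 7 of the 11 log2 fold changes were positive, from -0.50 (CLDN5, a tight junction gene, with 1 of 6 animals higher at the border) to 0.31, with a median of 0.08. PECAM1 was at 0.17 (adjusted p of 0.626 by edgeR) and CDH5 at 0.16 (0.697), and both were at 0.083 without the border zone library of animal 1022. The summed level of the list was 341 to 788 CPM in the remote zone and 447 to 632 CPM in the border zone.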

How the data were processed

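Poly(A)-enriched, nondirectional libraries from border and remote zone of 6 pigs were sequenced as 150 bp pairs. The authors aligned the reads to Sscrofa11.1 (Ensembl release 113) by STAR 2.7.10a and made gene counts by featureCounts 2.16.1. The deposited values are raw counts per gene. Options for reads that match several genes are not given in the sources used here, so overlapping genes are uncertain. Treatment group was not used.

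The analysis used R 4.3.3 with edgeR 4.0.16 (filterByExpr, TMM, robust quasi-likelihood test, region as the only term, Benjamini-Hochberg over all 13844 genes tested) and DESeq2 1.42.0, and in Python 3.11.15. Standard errors are fold changes (log2) over the square root of F. Correlations used log2 CPM with a prior count of 2 and have no p. Steps were tested on simulated data. Symbols, positions and exon lengths came from RefSeq tables and the RefSeq annotation of the same build. The length score used 2921 long and 2251 short genes, and 92.7% of the 11726 tested genes with a symbol had a length. No comparison of 2 libraries had a chi-square per gene under 27.3, so none was a copy.

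The members and lists were chosen with earlier results of these data known. Named genes were the 8 members; of the lymphatic lists, those with an adjusted p under 0.05 and 9 others whatever their values (VEGFC, VEGFD, CCBE1, FLT4, NRP2, SOX18, NR2F2, STAB1, CCR7); PECAM1, CDH5, MRC1, CD163, COL1A1, POSTN, MSLN, UPK3B, TNNI3, MYH7, PPBP and PF4; and the 3 genes most like each tested member. MSLN, MYH7 and PF4 had no identifier by the table and were not analysed here. The values of 1 gene of the lymphatic lists are not reported here. RYR2, MTHFSD, CLDN5 and the genes named in the closing section outside this rule were chosen after their values were seen. KDR, ERG and TIE1 are named only as genes shared between lists.

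The number names the animal that gave both libraries and so pairs them. Their deviations from the region means correlated across genes with a mean r of 0.345 (lowest -0.03, highest 0.57), and r was over 0.1 in 4 of 6 pairs. Alternatives were a replicate block for the animal, the Wald test of DESeq2, its size factors, scaling by library totals, a minimum of 10 counts per library or no minimum, mitochondrial genes removed, 1 animal left out at a time, and the border zone library of animal 3622 or of animal 1022 left out.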

Additional observations from a re-analysis of the deposited data

Results flagged for a closer look

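Of 54 sets of 6 libraries (27 measures in 2 regions), 4 had a sample set apart from the others by a gap larger than Dixon's limit, where chance alone flags about 1 in 20. In the border zone of animal 1022, FLT4 had a log2 CPM of 4.10, with the next library at 2.58. NRP2 was at 6.78 in the same library, with the next at 4.62. TNNI3 was at 10.07 there, with the next lowest library at 12.20. The border zone of animal 3622 had counts on 28024 genes, with the next library at 20148. None of the 7 genes of the set was flagged.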

How the results depend on the processing

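The number of all genes called was 287, and 41 with the animal as a replicate block, 1724 with the Wald test of DESeq2, 1551 with library totals, 139 with no filter, 149 with at least 10 counts in every library and 156 without the border zone library of animal 3622. With each animal left out it ranged from 0 to 519: 163 without 1022, 519 without 1322, 3 without 1323, 15 without 1922, and 0 without 1623 or 3622, where an unadjusted p under 0.05 was found for 2662 and 2448 genes by edgeR. Without animal 3622 and the remote zone library of 1322, a setting chosen after the data were seen, it was 0, with 2334 at an unadjusted p under 0.05. The causes were not tested. Of the 7 genes of the set, 0 were called by edgeR and 2 (RELN and FOXC2) with DESeq2 or library totals, and the replicate block changed no call among them.

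Of 111 alternative fold changes of the 7 genes, 100 had the same sign and call as before, 4 passed it (those of RELN and FOXC2 just named) and 7 changed sign. PROX1 was at 0.076 with the block and 0.029 with library totals, at -0.39 to 0.12 with animals left out (0.12 without 1022), and at 0.027 without the border zone library of 3622. With animals left out, LYVE1 ranged from -0.098 without 1323 to 0.45, with -0.0049 without 1623, and PDPN from -0.083 without 1323 to 0.31. FOXC2 likewise ranged from 1.09 to 2.55, RELN from 0.66 to 1.34 and MMRN1 from 0.27 to 1.20.

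Of 63 alternative within-animal differences, 53 had the same sign and call. That of PROX1 ranged from -0.22 without animal 1322 to 0.40 without 1022, and was -0.070 without 3622. Those of PDPN and CCL21 with library totals were 0.43 and 1.06, each with p = 0.03125 by the exact permutation test. The other 6 were those of RELN with 5 animals, where the smallest exact p is 0.0625, which says nothing of stability. Depth limits FOXC2 (as few as 6 counts per library), ACKR4 and TFF3.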

Other observations

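Among the lymphatic valve and junction genes, FAT4 and VANGL2 lay just outside the threshold by edgeR. DCHS1 of the same list was at 1.06, with an adjusted p of 0.0718 by edgeR and 0.0253 by DESeq2, and 5 of 6 animals higher. CELSR1 was at 0.093 (0.862 by edgeR), with 4 of 6 animals higher. FAT4 had medians of 3.34 CPM in the remote zone and 11.0 CPM in the border zone, with a log2 fold change of 1.95 ± 0.48 (SE) and an adjusted p of 0.0504 by edgeR. VANGL2 had a log2 fold change of 2.14 ± 0.53 (SE) at the same adjusted p. It had 4 to 19 counts per remote zone library, the lowest under the limit of the filter, and 27 to 102 per border zone library. PIEZO1, a channel opened by stretch of the membrane, was at 1.47 ± 0.39 (SE) and FOXC1, the forkhead paralog of FOXC2, at 1.37 ± 0.36 (SE), each with an adjusted p of 0.0605 by edgeR. In 6 of 6 animals, FAT4, VANGL2, PIEZO1 and FOXC1 were higher at the border, as were 11.7% of all genes tested. Without the border zone library of animal 1022, PIEZO1 was at 0.84 with an adjusted p of 0.0356 by edgeR, FAT4 at 1.34 (0.0652), VANGL2 at 2.10 (0.0694) and FOXC1 at 0.999 (0.1004). VANGL2 was highest in the border zone of animal 3622, at 6.23 CPM, against 1.06 to 2.64 CPM in the other border zone libraries. Its fold change without the library of animal 3622 is not given here.

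Of the growth factors and their processing genes, HGF and SVEP1 had the largest differences, at 1.44 ± 0.42 (SE) and 1.20 ± 0.36 (SE), with adjusted p of 0.0764 and 0.0824 by edgeR and 6 of 6 animals higher in the border zone. Without the border zone library of animal 1022 they were at 0.83 and 0.69. Beside DCHS1, DESeq2 called 6 of the genes above, with adjusted p of 0.0027 (FAT4), 0.0043 (VANGL2), 0.0096 (PIEZO1), 0.0131 (FOXC1), 0.0207 (HGF) and 0.0293 (SVEP1). It called 8.48% of all genes higher in the border zone. The 6 were chosen for their values in the same counts, so these calls are not support. COL1A1 and POSTN, a matrix protein of activated fibroblasts, had log2 fold changes of 4.05 and 3.44 (adjusted p of 0.0295 and 0.0395 by edgeR). These were 2.49 and 2.18 when the border zone library of animal 1022 was left out. With the animal as a block the adjusted p was 0.0821 for COL1A1 and 0.0410 for POSTN by edgeR. UPK3B, a mesothelial gene, had 69 counts in the border zone of animal 1323, 0 to 6 in the other border zone libraries and 2 to 5 per remote zone library. TNNI3 was at -1.10, with an adjusted p of 0.148 by edgeR and 0.0487 by DESeq2. These genes, apart from COL1A1, POSTN, UPK3B and TNNI3, were chosen after their values were seen.

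For the genes most like LYVE1 (CDO1, ORAI1 and SCRG1) the r over 12 libraries was 0.834, 0.829 and 0.768. For PDPN it was 0.825 with LMCD1, 0.815 with KLF4 and 0.806 with N4BP2. CCL21 was most like TLR5 (0.916), FLRT3 (0.885) and BORA (0.877), and MMRN1 most like ARF6 (0.939), CSGALNACT2 (0.935) and PPRC1 (0.917). Lymphocyte genes, of which 4 of 10 listed were tested and 0 were called by edgeR, summed to 3.95 to 7.48 CPM in the remote zone and 3.90 to 26.1 CPM in the border zone. Smooth muscle and pericyte genes, with 10 of 10 tested, summed to 8258 to 12573 CPM in the remote zone and 8340 to 17058 CPM in the border zone. Of these genes, 0 were called by edgeR (1 without the border zone library of animal 1022). DESeq2 called 5 of the 9 that it gave an adjusted p, where it called 8.48% of all genes higher in the border zone.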
